A study of Mus musculus with 9 samples.

Results

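The 8 genes described here were read out of the RNA of 9 mouse liver tumors. These genes carry bile acids or other components of bile across the hepatocyte membrane, conjugate bile acids, or restrain bile acid synthesis. They were chosen by name, as every entry of the per-tumor tables that names Slc10a1, Slco1b2, Abcb11, Abcb4, Abcc2, Baat, Slc27a5 or Nr0b2, and make 8 of the 52176 gene symbols in those tables. Pieces of subcutaneous tumor grown from Hepa1-6 cells, a mouse hepatoma line, had been implanted into the left liver lobe of male C57BL/6 mice bought at 6 to 8 weeks of age. Mice received PBS or an antibody against PD-1, of the clone RMP1-14, by intraperitoneal injection every 4 days for 5 times, from day 10 to day 26, and whole tumors were taken on day 27 with the surrounding tissue removed. From the antibody-treated mice the study kept the 3 smallest tumors as responsive and the 3 largest as nonresponsive, leaving out those in between, and the remaining group was 3 tumors of PBS-treated mice. Groups of antibody-treated tumors therefore differ in size by construction, and size and response cannot be told apart. The mice are of 1 inbred strain and the tumors come from 1 cell line, which limits both as a model.

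In the liver, hepatocytes take bile acids up from the blood of the sinusoids, join the newly made ones to taurine or glycine, and pump them across the opposite, canalicular membrane into bile. Slc10a1 (NTCP) takes up conjugated bile acids together with sodium, and Slco1b2 is a sodium-independent uptake carrier of broad specificity. Abcb11 (BSEP) is the canalicular bile salt pump, Abcb4 moves phosphatidylcholine into bile, where it shields membranes from bile salts, and Abcc2 (MRP2) exports conjugated organic anions such as bilirubin glucuronides. Slc27a5 activates bile acids to their CoA thioesters, Baat joins these to the amino acid, and Nr0b2 (SHP) is a nuclear receptor without a DNA-binding domain that is induced by the bile acid receptor FXR and represses bile acid synthesis. All 8 are known for high or selective expression in hepatocytes.

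Because the RNA of these genes moved together over the tumors, the stretches directly upstream of their starts are shown for the 4 genes in which a searched motif lay within the 120 bases before the first start. The stretch before the second, downstream start of Slc10a1, which also held a match, is not shown. RefSeq (GRCm38.p6) start-site entries matched 6 of the 8 genes, with 7 starts, and those of Baat and Slc27a5 were not matched. Each stretch is written 5′ to 3′ on the strand of the gene, ends at the base before the start, and carries its motif in capitals.
Slco1b2, chr6:141629398-141629517, plus strand: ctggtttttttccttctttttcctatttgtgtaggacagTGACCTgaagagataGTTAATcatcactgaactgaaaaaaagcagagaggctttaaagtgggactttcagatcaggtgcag
Abcb11, chr2:69342617-69342736, minus strand: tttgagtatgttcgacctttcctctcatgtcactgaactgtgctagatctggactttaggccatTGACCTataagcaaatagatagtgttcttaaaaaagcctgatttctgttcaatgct
Abcc2, chr19:43782188-43782307, plus strand: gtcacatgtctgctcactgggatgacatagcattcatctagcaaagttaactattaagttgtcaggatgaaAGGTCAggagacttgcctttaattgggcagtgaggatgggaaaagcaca
Nr0b2, chr4:133553256-133553375, plus strand: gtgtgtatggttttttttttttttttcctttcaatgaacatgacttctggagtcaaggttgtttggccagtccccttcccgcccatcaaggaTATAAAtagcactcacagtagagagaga
The following 4 motifs were searched on both strands of the 250 bases before each start: GTTAAT, a core of HNF1 sites; AGGTCA, the core shared by many nuclear receptor sites; CAAGGTCA, the longer NR5A2 site, which contains AGGTCA; and TATAAA, the TATA box. AGGTCA or its reverse TGACCT was present at 4 of the 7 starts, against 14.0% of 32851 mouse start-site windows of the same length. It began 49 bases before the start in Abcc2, 56 in Abcb11 and 81 in Slco1b2, and 87 before the second start of Slc10a1. GTTAAT was present at 1 of 7 starts (Slco1b2, 66 bases before) against 6.43% of windows, TATAAA or its reverse TTTATA at 3 of 7 (28 bases before the start in Nr0b2) against 12.4%, and CAAGGTCA at 0 of 7 against 1.33%. The window of Abcb4 held none of these letters. These matches describe letters only.

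Levels are given as FPKM (fragments mapped to a gene, scaled to transcript length and to the mapped fragments of the library), as the authors' Cufflinks estimates list them for each tumor. No fragment totals are given with the values, so their absolute depth is unknown, and the spacing of the lowest values put the depth of the tumors at 0.944 to 1.07 times that of PBS tumor 1. Entries naming no gene held 19.2% to 81.5% of the summed FPKM, with the highest share in PBS tumor 1. Every member had 1 entry in every tumor, and only the Baat entry of responsive tumor 2 was shared, with the neighboring Mrpl50, a mitochondrial ribosomal protein gene. A value of 0 in these tables can be a failed estimate, since 78 to 213 features per tumor were listed at 0 there while 5 or more other tumors had them at 5 FPKM or above. The highest number, 213, was again that of PBS tumor 1.

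The sinusoidal uptake carriers were highest in the responsive tumors. Slc10a1 was listed at 1.35, 0 and 9.54 FPKM in the PBS tumors 1 to 3, at 28.8, 14.2 and 0 in the nonresponsive tumors and at 69.5, 30.1 and 39.4 in the responsive tumors. The 3 responsive values lay above all others. PBS tumor 2 and nonresponsive tumor 3, which list Slc10a1 at 0, had 37.9 and 22.2 FPKM of Slco1b2, so that the other uptake carrier was measured in both. Slco1b2 was at 2.24, 37.9 and 31.3 FPKM in PBS tumors (23.8 ± 18.98, mean ± SD, n = 3), 74.0, 50.7 and 22.2 in nonresponsive tumors (49.0 ± 25.98) and 144, 61.8 and 109 in responsive tumors (105 ± 41.4). Its nonresponsive and responsive values overlapped, because nonresponsive tumor 1 exceeded responsive tumor 2.

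The 3 canalicular exporters followed one another closely. Abcb11 was at 0.421, 7.38 and 8.91 FPKM in PBS tumors, 20.8, 10.1 and 6.12 in nonresponsive tumors and 39.2, 17.7 and 26.7 in responsive tumors (group means 5.57 ± 4.52, 12.3 ± 7.57 and 27.9 ± 10.8). Abcb4 was at 0.186, 5.05 and 6.82 FPKM, then 12.9, 6.28 and 4.61, then 24.5, 10.7 and 16.3 in the same order (means 4.02 ± 3.43, 7.93 ± 4.39 and 17.2 ± 6.93). For Abcc2 the values were 0.341, 6.96 and 6.73, then 11.6, 7.85 and 5.18, then 23.1, 11.4 and 18.6 (means 4.68 ± 3.76, 8.21 ± 3.22 and 17.7 ± 5.93). In all 3 genes the responsive tumors lay above every PBS tumor, and nonresponsive tumor 1 lay above responsive tumor 2. The pump and the phospholipid floppase kept an almost fixed proportion, with an Abcb11 to Abcb4 ratio of 1.31 to 1.65 in 8 tumors and of 2.27 in PBS tumor 1, where both were under 1 FPKM.

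Both conjugation enzymes showed the same order of groups. Slc27a5 was at 1.58, 21.8 and 24.9 FPKM in PBS tumors (16.1 ± 12.7), 62.3, 30.2 and 18.5 in nonresponsive tumors (37.0 ± 22.7) and 118, 55.6 and 78.7 in responsive tumors (84.1 ± 31.6). Baat was at 0.659, 9.77 and 12.7 FPKM (7.72 ± 6.30), then 27.3, 15.2 and 9.58 (17.3 ± 9.04), then 54.3, 36.9 and 31.4 (40.8 ± 11.9). The responsive Baat values lay above all others, but the 36.9 of responsive tumor 2 includes Mrpl50, which had an entry of its own at 11.2 to 21.2 FPKM in the other 8 tumors. The ratio of Slc27a5 to Baat was 1.51 in that tumor and 1.93 to 2.50 elsewhere.

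The repressor Nr0b2 had the lowest level of the 8 genes in 7 of 9 tumors. Its FPKM was 0.0583, 4.42 and 1.36 in PBS tumors (1.95 ± 2.24), 5.14, 3.27 and 1.35 in nonresponsive tumors (3.25 ± 1.89) and 12.5, 4.04 and 8.81 in responsive tumors (8.46 ± 4.26). PBS tumor 2 was above responsive tumor 2, so for this gene alone the responsive and PBS groups overlapped. The ratio of Nr0b2 to Abcb11 was 0.599 in PBS tumor 2 and 0.138 to 0.330 in the other 8.

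**Figure D1:**
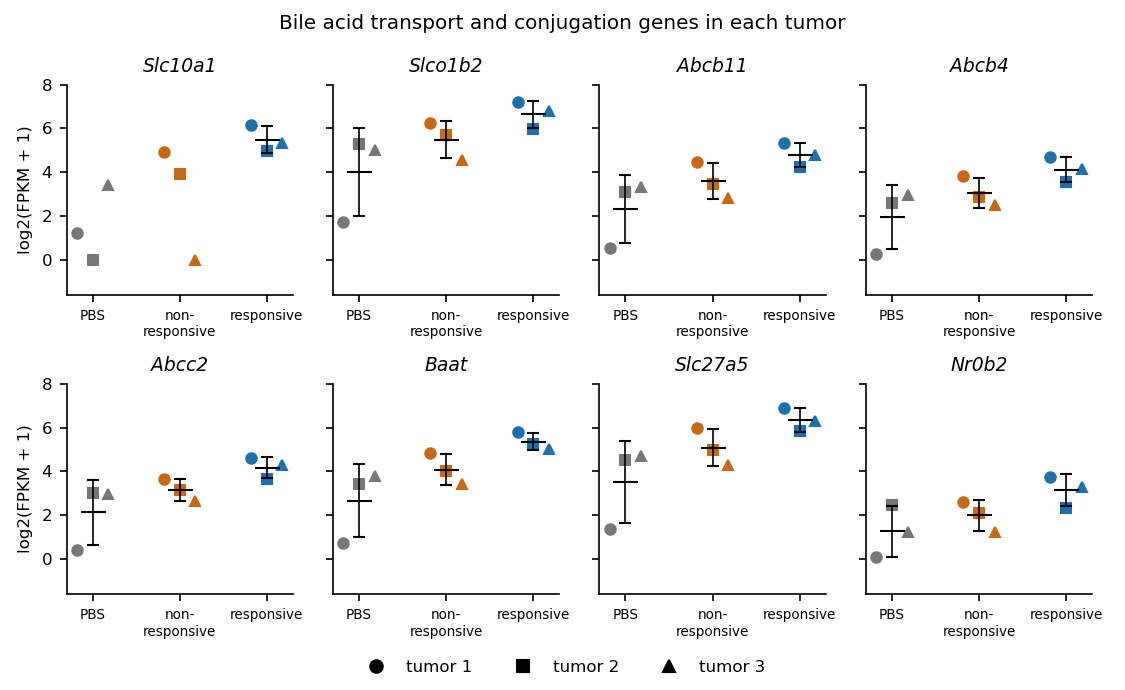
Level of each of the 8 genes, as log2(FPKM + 1) on the vertical axis, in the 3 PBS, 3 nonresponsive and 3 responsive tumors (symbols mark the tumor number). Black lines give the mean ± SD of a group, left out for Slc10a1 where a tumor lists it at 0. The highest point is responsive tumor 1 in all 8 panels, and the lowest is PBS tumor 1 in the 7 panels other than Slc10a1.

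The order of the genes within a tumor was stable. Since FPKM is per length, levels of different genes can be set beside each other: Slco1b2 was the highest and Slc27a5 the second of the 8 in all 9 tumors, while Abcb11, Abcb4 and Abcc2 took places 4 to 7. Across tumors the order was nearly as regular. Responsive tumor 1 was highest for 8 of 8 genes, responsive tumor 3 was next for 7 of 8 (the exception being Baat), nonresponsive tumor 3 was eighth or tied for the lowest value for all 8, and PBS tumor 1 was lowest for 7 of 8. For Baat, responsive tumor 2 came next, in the entry shared with Mrpl50. The log2(FPKM + 1) levels of Abcb11 and Slc27a5 over the 9 tumors had a Pearson r of 0.998, the highest of the 28 pairs, and the lowest, 0.67 between Slc10a1 and Nr0b2, involved the gene with listings at 0. These correlations share the same 9 libraries and 3 groups and are given as a description.

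Responsive against nonresponsive tumors addresses which genes go with a small tumor under antibody. All 8 genes had a higher mean in the responsive tumors, by 2.14 to 2.60 times in mean FPKM for the 7 genes without listings at 0, and 0 of 8 passed an adjusted p of 0.05 (limma on log2(FPKM + 1), Benjamini-Hochberg over 13845 features, of which 0.116% passed in either direction). At an unadjusted p under 0.05, 3 of 8 were higher, Baat, Abcc2 and Slc27a5, where 4.05% of all features were. For 2 of 8, Slc10a1 and Baat, the groups did not overlap, against 5.78% of all features that were higher without overlap. The Baat entry of responsive tumor 2 includes Mrpl50, so whether Baat alone lacked overlap is not known. The median log2 difference was 1.18 over the 8 genes and −0.066 over all features.

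The conjugation enzyme Baat differed by 1.27 on the log2(FPKM + 1) scale (SE 0.42, 95% interval 0.25 to 2.29) and Slc27a5 by 1.27 (SE 0.51, 0.026 to 2.51). Of the exporters, Abcc2 differed by 1.03 (SE 0.37, 0.11 to 1.94), Abcb11 by 1.20 (SE 0.49, −0.011 to 2.40) and Abcb4 by 1.06 (SE 0.45, −0.030 to 2.16), so that they lay on both sides of the unadjusted threshold with intervals that overlapped for most of their length. Slco1b2 differed by 1.16 (SE 0.53, −0.14 to 2.46), Nr0b2 by 1.15 (SE 0.51, −0.097 to 2.39) and Slc10a1 by 2.54 (SE 1.27, −0.59 to 5.67). Adjusted p-values of the 8 genes were 0.885 to 0.90, and exact two-sided permutation p-values were 0.1 for Slc10a1 and Baat, the smallest that 3 against 3 tumors allow, and 0.2 for the other 6. The values of Baat include Mrpl50 in responsive tumor 2.

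Single tumors moved these values. Without nonresponsive tumor 3, where Slc10a1 is listed at 0, the difference of Slc10a1 was 1.07 (SE 0.49). When Baat and Mrpl50 were taken as 1 locus in every tumor, their summed level differed by 0.58 (SE 0.28), without an unadjusted p under 0.05. That value includes Mrpl50 in every tumor and is not one of Baat alone. Without responsive tumor 2, the tumor with the shared entry, Baat differed by 1.32 (SE 0.50), with an unadjusted p under 0.05. The count of members with an unadjusted p under 0.05 was 8 without nonresponsive tumor 1, 7 without responsive tumor 2, 1 without responsive tumor 3 and 0 without nonresponsive tumor 2, nonresponsive tumor 3 or responsive tumor 1. The number of all features with such a p, in either direction, was 760 of 13845 with all tumors and 1426, 859, 333, 310, 622 and 356 in the same order.

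Responsive against PBS tumors compares the small antibody-treated tumors with PBS-treated ones. All 8 genes were higher in mean in the responsive tumors, by 3.78 to 5.29 times in mean FPKM for the 7 genes without listings at 0, and 0 of 8 passed an adjusted p of 0.05, as 0.231% of 13852 features did in either direction. At an unadjusted p under 0.05, 8 of 8 were higher against 8.47% of features, and for 7 of 8, all but Nr0b2, every responsive tumor was above every PBS tumor against 11.6% of features. The log2 difference was 3.93 for Slc10a1 (SE 0.89, limma adjusted p = 0.281), and 3.16 (SE 0.76) without PBS tumor 2, which lists it at 0. It was 2.82 for Slc27a5 (SE 0.95), 2.70 for Baat (SE 0.84) and 2.65 for Slco1b2 (SE 1.02). Abcb11 differed by 2.49 (SE 0.81), Abcb4 by 2.18 (SE 0.78), Abcc2 by 2.05 (SE 0.76) and Nr0b2 by 1.88 (SE 0.69). Adjusted p-values of the 8 genes lay between 0.281 and 0.287. The summed level of Baat and Mrpl50, taken as 1 locus, differed by 0.97 (SE 0.28), and without responsive tumor 2 Baat differed by 2.76 (SE 1.04). PBS tumor 1, the lowest for 7 of 8 genes, weighed on these values: without it the members' median difference went from 2.57 to 1.54, with 1.74 for Slc27a5, 1.75 for Baat, 1.50 for Slco1b2, 1.59 for Abcb11, 1.33 for Abcb4, 1.20 for Abcc2 and 1.29 for Nr0b2, and 7 of 8 genes, all but Nr0b2, had an unadjusted p under 0.05. Only Slc10a1 kept an unadjusted p under 0.05 without responsive tumor 1, and 2 of 8 genes did without responsive tumor 3. All features with such a p, in either direction, numbered 2385 with all tumors, 1239 without PBS tumor 1, 1005 without responsive tumor 1 and 1159 without responsive tumor 3.

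Nonresponsive against PBS tumors compares large antibody-treated tumors with PBS-treated ones. The means of all 8 genes were higher in the nonresponsive tumors, with log2 differences from 0.73 (Nr0b2, SE 0.68) to 1.55 (Slc27a5, SE 1.00), but the spread between tumors was of the same size. Most of this difference rested on PBS tumor 1, without which the members' median went from 1.34 to 0.37 and the 7 genes other than Slc10a1 differed by 0.14 (Nr0b2) to 0.48 (Baat). By limma 0 of 8 passed an adjusted p of 0.05 (adjusted p from 0.718 to 0.725), which 0.0797% of 13806 features did, and 0 of 8 had an unadjusted p under 0.05, which 1.51% had in this direction. The groups overlapped for 8 of 8, whereas 3.23% of features were higher without overlap. Slc10a1 differed by 1.40 (SE 1.50) with all 6 tumors, by 2.87 (SE 1.07) without nonresponsive tumor 3, where its unadjusted p was under 0.05, and by 2.09 (SE 0.89) without both tumors that list it at 0. The 3 comparisons share tumors with each other and are not independent.

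Other genes of bile acid handling were read from 4 lists, with 37 of 43 genes tested between responsive and nonresponsive tumors. Pdzk1 entered only through the responsive tumors, being listed at 0 in all others, and is left out of the counts. Of the other 36, 34 had the higher mean in responsive tumors, 9 were higher (against 4.05% of all features) and 0 lower at an unadjusted p under 0.05, and 0 passed the adjusted threshold (limma). The median log2 difference was 0.76. Against PBS, 26 of 36 were higher (against 8.47% of all features) and 1 lower (Abcb1a, a multidrug exporter, at −0.56) at an unadjusted p under 0.05. Between nonresponsive and PBS tumors 1 of 36 was higher at such a p (Abcg5, of the canalicular sterol exporter, at 0.99), against 1.51% of all features. Abcb1a and Abcg5 were named after their values were seen.

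Synthesis enzymes had the higher mean in responsive than in nonresponsive tumors in 16 of 16 genes. At an unadjusted p under 0.05, 6 of 16 were higher, against 4.05% of all features. The entry of Hsd3b7, a gene not among these 6, also names Gm49388 and Setd1a in every tumor. Cyp8b1, the sterol hydroxylase that directs synthesis toward cholic acid, was at 0.476 to 2.40 FPKM in PBS, 1.05 to 3.71 in the nonresponsive and 7.54 to 19.5 in the responsive group, so that all responsive tumors were above the rest (log2 difference to nonresponsive 1.98, SE 0.49, limma adjusted p = 0.885). Slc27a2, an acyl-CoA synthetase of very-long-chain fatty acids and bile acid precursors, differed by 1.52 (SE 0.52), Akr1c6, a hydroxysteroid dehydrogenase, by 1.40 (SE 0.57) and Akr1d1, the steroid reductase of the bile acid pathway, by 1.26 (SE 0.44). Among other sinusoidal carriers 2 of 5 tested were higher at an unadjusted p under 0.05. Slco1a1, an organic anion uptake carrier, differed by 1.91 (SE 0.59) and was at 3.09 to 13.0 FPKM in nonresponsive and 14.9 to 42.1 in responsive tumors, and Abcc6, a basolateral exporter, differed by 1.18 (SE 0.44).

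Of 7 other canalicular genes 0 had an unadjusted p under 0.05, at which 4.05% of all features were higher, and 6 of 7 had the higher mean in responsive tumors. Pdzk1, a scaffold protein that anchors transporters at the membrane, was listed at 0 in all 6 PBS and nonresponsive tumors and at 11.5, 5.82 and 9.87 FPKM in the responsive tumors. Zeros in so many tumors can be missing estimates, and neither a fold change nor a test is given. Among regulators 8 of 11 were tested, 8 of 8 had the higher mean in responsive tumors and 1 of 8, Hnf4a, a master regulator of hepatocyte genes, had an unadjusted p under 0.05. Hnf4a was at 11.2 to 12.6 FPKM in PBS, 12.4 to 23.7 in the nonresponsive and 24.7 to 39.0 in the responsive group (log2 difference to nonresponsive 1.05, SE 0.33). Nr1i3 (CAR) was listed at 0 in 8 tumors and at 2835 FPKM in responsive tumor 3, in an entry shared with the apolipoprotein gene Apoa2, and was therefore not read as a level.

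**Figure D2:**
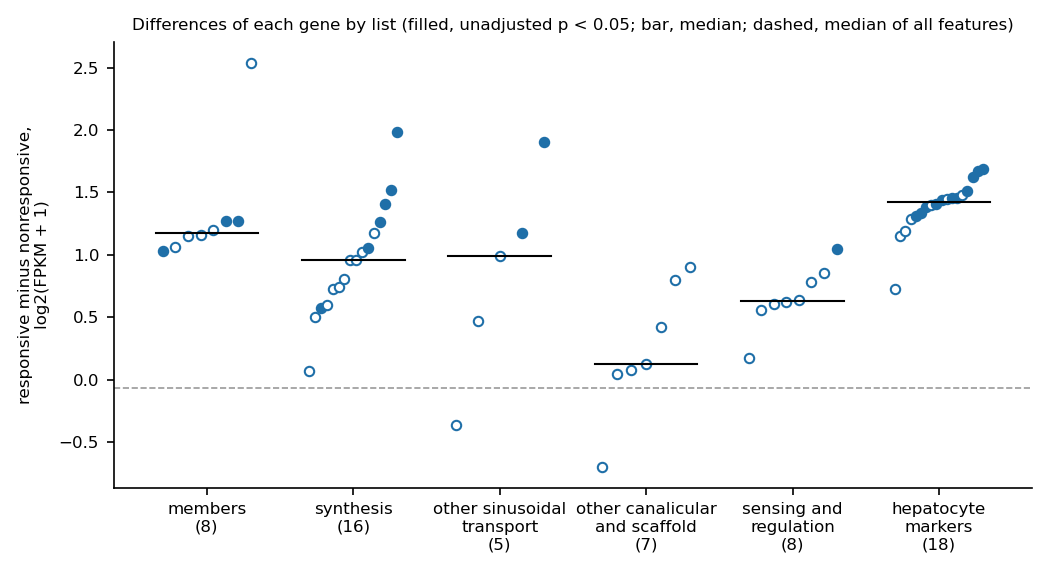
Responsive minus nonresponsive difference on the log2(FPKM + 1) scale (vertical axis) of each tested gene, by list, with the number drawn in parentheses (Pdzk1, listed at 0 in every nonresponsive tumor, is left out). Filled points have an unadjusted limma p under 0.05, black bars are list medians and the dashed line is the median of all features. The 8 members have a median of 1.18, synthesis genes 0.96 and hepatocyte markers 1.42, and the highest point is Slc10a1 at 2.54.

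General hepatocyte markers moved with the 8 genes. In bulk tissue, fewer cells of a type and less RNA per cell cannot be told apart. The summed FPKM of 18 hepatocyte markers was 581 to 6666 in PBS, 4331 to 14523 in the nonresponsive and 12260 to 25642 in the responsive group, with 0 of the 18 at 0 in any tumor. At an unadjusted p under 0.05, responsive tumors had more RNA of 11 of the 18 than nonresponsive tumors did, and of 17 of the 18 than PBS tumors did. Of all features, 4.05% and 8.47% were higher at this p in the same comparisons. Alb (albumin) was at 173 to 1259 FPKM in PBS, 885 to 2678 in the nonresponsive and 2576 to 5041 in the responsive group. Apoa2 was at 89.2 to 1081, 590 to 2915 and 2735 to 5326 in the same order, and Hpx (hemopexin) at 112 to 1776, 1160 to 3020 and 1596 to 4096.

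Set against the mean log2(FPKM + 1) of these markers in the same tumor, the members varied less than on their own. The level of Abcb11 spanned 4.82 log2 units over the 9 tumors, and its distance from the marker mean spanned 0.57. The spans were 5.53 and 0.55 for Slc27a5, 5.06 and 0.54 for Baat, 4.43 and 0.98 for Abcb4, 4.17 and 1.16 for Abcc2, 5.49 and 1.00 for Slco1b2, and 3.68 and 2.03 for Nr0b2. Slc10a1, with its listings at 0, spanned 6.14 and 3.83. When the marker mean entered the model as a covariate, over all 9 tumors, no member had an unadjusted p under 0.05 in any comparison. Between responsive and nonresponsive tumors, 9 tumors in 1 fit without the covariate also gave 0 members at such a p. The differences in that fit were those of the 6 tumors (1.27 for Baat, SE 0.78), so the missing calls cannot be credited to the covariate. For responsive against nonresponsive tumors 6 of 8 differences then turned negative, from −0.064 (SE 0.21) for Baat to −0.44 (SE 0.32) for Slco1b2, and those of Nr0b2 (0.22, SE 0.48) and Slc10a1 (1.37, SE 1.43) stayed positive.

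**Figure D3:**
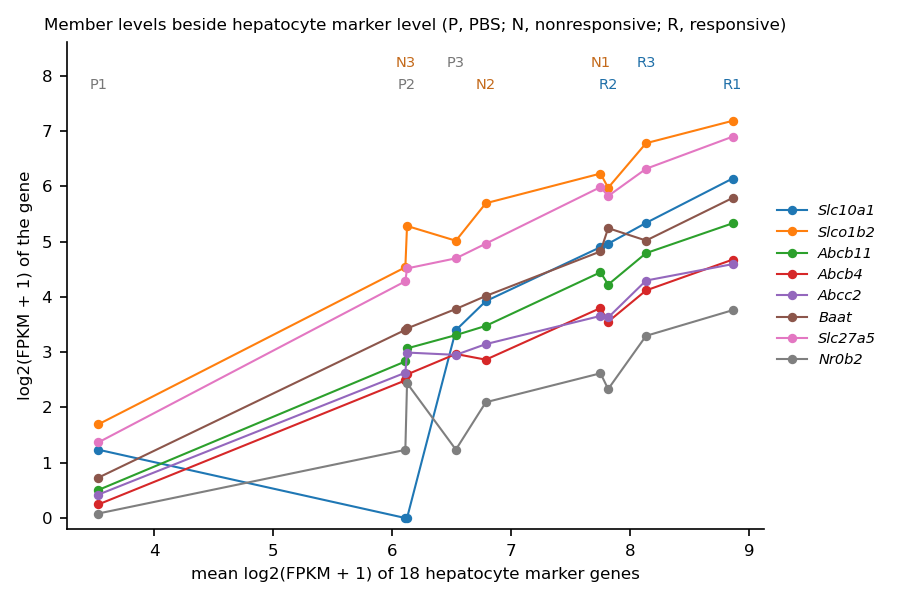
Level of each of the 8 genes, as log2(FPKM + 1) on the vertical axis, against the mean log2(FPKM + 1) of 18 hepatocyte markers in the same tumor (horizontal axis), with each tumor named above its points. Lines join the tumors in order of the marker mean. PBS tumor 1 lies lowest on the horizontal axis and responsive tumor 1 highest, and Slc10a1 drops to 0 in PBS tumor 2 and nonresponsive tumor 3.

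**Figure D4:**
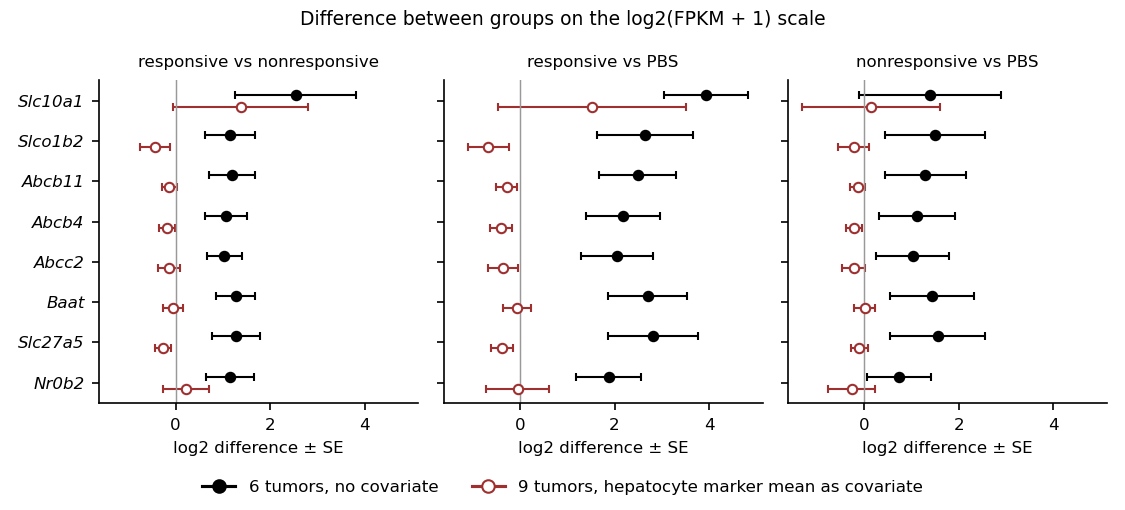
Difference between groups on the log2(FPKM + 1) scale (horizontal axis, bars are ± 1 SE) for each of the 8 genes in the 3 comparisons. Filled points are fits of the 6 tumors compared and open points are fits of 9 tumors with the hepatocyte marker mean as a covariate. The filled points all lie above 0 and, with the covariate, 6, 7 and 6 of the 8 open points lie below 0 from left to right.

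Among the 5 features whose profile over the 9 tumors was most like the mean of the 8 genes, out of 14465 compared, were Phyh (peroxisomal phytanoyl-CoA hydroxylase, Pearson r = 0.998), Aadac (arylacetamide deacetylase, 0.998), Haao (an enzyme of tryptophan breakdown, 0.997) and Mat1a (the methionine adenosyltransferase of liver, 0.995). Phyh was at 15.9 to 89.2 FPKM in PBS, 57.7 to 163 in the nonresponsive and 171 to 371 in the responsive group.

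Markers of other cells differed between tumors as well. Among hepatoma and fetal liver genes, Afp (alpha-fetoprotein) was at 0.321 FPKM in nonresponsive tumor 1 and 0.646 in responsive tumor 1, and at 4.40 to 56.5 in the other 7. H19, a fetal noncoding RNA whose entry also names Mir675, was at 15.7 to 39.3 FPKM in nonresponsive and 3.01 to 11.0 in responsive tumors, and Gpc3 (glypican) at 5.43 to 11.5 and 2.50 to 9.71. Igf2 and Peg3 did not share the low values of Afp in nonresponsive tumor 1 and responsive tumor 1. There Igf2, a fetal growth factor whose entry also names Gm49394, was highest, at 5.47 and 6.13 FPKM against 0.771 to 5.20 in the other 7. Peg3, an imprinted gene, was at 1.47 and 1.32 against 0.350 to 1.81. The summed level of the 6 genes of that list was 37.3 to 46.6 FPKM in PBS, 30.6 to 108 in the nonresponsive and 11.3 to 68.7 in the responsive group. Bile duct markers were mixed in nonresponsive tumor 1 and responsive tumor 1. Krt19 was at 1.47 and 5.82 FPKM there against 51.6 to 212 in the other 7, Krt7 at 0.450 and 1.25 against 2.41 to 64.6, and the membrane gene Tspan8 at 2.14 and 5.48 against 59.2 to 217.

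The summed level of the 8 bile duct markers was 213 to 527 FPKM in PBS, 15.1 to 429 in the nonresponsive and 35.9 to 381 in the responsive group. These genes did not move as 1 set. Krt19, Krt7 and Tspan8 were highest in PBS tumor 1, at 212, 64.6 and 217 FPKM, where Cftr and Epcam were lowest, at 0.0165 and 2.14, and Sctr was at 0. The sum is therefore no measure of bile duct cells, and which cells held these RNAs was not tested. In nonresponsive tumor 1 and responsive tumor 1 Epcam was at 6.15 and 13.6 FPKM against 2.14 to 20.9 in the other 7, Cftr at 0.0874 and 0.388 against 0.0165 to 0.413, and Sox9 at 2.195 and 4.32 against 2.54 to 7.78. Of the 8, Sctr was at 0 in 5 of the 9 tumors. Of 6 tested between responsive and nonresponsive tumors 1, Epcam, an adhesion molecule of epithelia, was higher at an unadjusted p under 0.05 (log2 difference 1.70, SE 0.32), against 4.05% of all features. The genes of these lists beyond the 3 highest were named after their values were seen. In the hepatoma and fetal liver list Dlk1 was at 0 in 1 tumor, and 1 of 5 tested (H19) was lower in responsive tumors at an unadjusted p under 0.05. Of all 13845 features, 760 had such a p in either direction. Nonresponsive tumor 1 and responsive tumor 1 were also the highest of their groups in all 8 members. Without both, 5 of 8 members had an unadjusted p under 0.05 between responsive and nonresponsive tumors, and 0 of 8 an adjusted p under 0.05. The log2 differences ran from 1.07 (Abcc2) to 3.19 (Slc10a1). Of all features, 855 had an unadjusted p under 0.05 in either direction in that fit, 76.1% of them higher in responsive tumors. How many features that fit tested is not given, so no share of all features stands beside the 5 of 8. The part of these markers in the members' differences was not tested.

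Kupffer cells, the resident macrophages of liver, and sinusoidal endothelial cells were read by 5 markers each. The summed level of 5 Kupffer cell markers was 4.52 to 118 FPKM in PBS, 85.3 to 216 in the nonresponsive and 119.3 to 303 in the responsive group, and for Cd5l, Clec4f and Vsig4 the values were 34.7 to 86.7, 19.3 to 77.0 and 11.9 to 34.9 in nonresponsive and 49.1 to 113, 33.6 to 72.5 and 17.8 to 39.3 in responsive tumors. That of 5 sinusoidal endothelial markers was 144 to 319, 137 to 549 and 102 to 307 FPKM, with Fcgr2b at 117 to 495 in the nonresponsive and 70.0 to 266 in the responsive group, Clec4g at 5.33 to 23.3 and 14.3 to 34.98, and Lyve1 at 10.5 to 18.8 and 6.49 to 17.4. Fcgr2b held most of that sum in every tumor, so the sum mainly describes this gene. Of the 5 markers, 3 had the higher mean in responsive than in nonresponsive tumors, and Fcgr2b and Lyve1 had the lower mean (median log2 difference 0.55). Between responsive and nonresponsive tumors 0 of these 10 markers had an unadjusted p under 0.05. Between responsive and PBS tumors 2 of 10 were higher at such a p, against 8.47% of all features. They were the endothelial genes Clec4g (log2 difference 2.05, SE 0.71) and Oit3 (1.40, SE 0.49), the latter named after its value was seen. The median difference in that comparison was 2.201 over the Kupffer cell markers and 1.40 over the endothelial ones, against 2.57 over the 8 members. Their part in the members' differences was not tested.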

How the data were processed

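Tumors of 9 mice, 3 per group, were analysed, grouped by their labels. For each tumor the authors deposited Cufflinks FPKM, normalized for transcript length and mapped fragments. The submitters' processing notes name TopHat2 2.1.1, Bowtie2 2.2.4 and the build mm8, and since coordinates in the tables did not match the reference used here, none of them is printed. The authors' Cuffdiff table holds fold changes and p-values and was not used. FPKM was summed over the rows naming a symbol, and symbols with identical rows in all tumors were 1 feature, which gave 50417 features, of which 11 with a failed estimate were left out. A feature was tested if 3 or more of the 6 tumors compared reached an FPKM of 1, and limma 3.58.1 (R 4.3.3, with trend, not robust) was fitted to log2(FPKM + 1), with Benjamini-Hochberg adjustment. Fold changes of low genes are understated on this scale. The limma step was run on simulated normal log values whose spread was capped below that of the members over the 9 tumors. That simulation does not cover values as variable as theirs. Exact permutation tests were two-sided (Python 3.11.15, scipy 1.17.1). The 8 members and all gene lists were chosen with earlier results of these data known. Named genes are the members, up to 4 genes per bile acid list with an unadjusted p under 0.05 between responsive and nonresponsive tumors, the 3 highest of each marker list, and the 5 features most like the members, 1 of which is not reported here. No source says more about replicates than 1 tumor per mouse, and no tumors were duplicates (Pearson r between tumors 0.577 to 0.904).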

Additional observations from a re-analysis of the deposited data

How the results depend on the processing

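The direction of all 8 members held in every comparison under a pseudocount of 0.1, without a filter on low FPKM, with a filter at 5, under upper-quartile scaling, scaling by the FPKM of entries that name a gene, all 9 tumors in 1 fit, a replicate block, an ordinary Student test, joined loci (where Baat is summed with Mrpl50) and the loss of any tumor. At the filter of 5, 7 of 8 members were tested in the comparisons with PBS, and the direction held for these. With the hepatocyte marker mean as a covariate it turned for 6, 7 and 6 of the 8 in the 3 comparisons, while Slc10a1 (1.37, 1.52 and 0.15) stayed positive in each, Nr0b2 (0.22) in the first and Baat (0.0052) in the last. Between responsive and nonresponsive tumors the values that turned were −0.44 for Slco1b2, −0.14 for Abcb11, −0.18 for Abcb4, −0.13 for Abcc2, −0.064 for Baat and −0.27 for Slc27a5. Between responsive and PBS tumors they were −0.67 for Slco1b2, −0.28 for Abcb11, −0.40 for Abcb4, −0.36 for Abcc2, −0.059 for Baat, −0.38 for Slc27a5 and −0.053 for Nr0b2. Between nonresponsive and PBS tumors they were −0.23 for Slco1b2, −0.14 for Abcb11, −0.22 for Abcb4, −0.22 for Abcc2, −0.10 for Slc27a5 and −0.27 for Nr0b2. The cause was not tested.

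Members with an unadjusted p under 0.05 between responsive and nonresponsive tumors numbered 3, and 0 with scaling by named entries, with 9 tumors in 1 fit, by a Student test or with the covariate. Leaving out 1 tumor gave 0 to 8, and leaving out nonresponsive tumor 1 with responsive tumor 1, chosen after seeing the data, gave 5. Between responsive and PBS tumors they numbered 8, then 4 with a pseudocount of 0.1, 1 by a Student test, 0 with the covariate and 1 to 8 with a tumor left out. Between nonresponsive and PBS tumors they numbered 0, 0 to 1 with a tumor left out, and 1 without both tumors listing Slc10a1 at 0, an alternative also chosen after seeing the data.

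Of all features, 16 passed an adjusted p of 0.05 between responsive and nonresponsive tumors, and 9 without the filter, 8 at the filter of 5, 7 by a Student test, 8 as joined loci and 0 to 32 with a tumor left out. Between responsive and PBS tumors 32 passed, and 16 in the fit of 9 tumors, 20 by a Student test, 19 as joined loci, 6 with the covariate and 7 to 49 with a tumor left out. Between nonresponsive and PBS tumors 11 passed, and 5 without the filter, 6 in the fit of 9 tumors, 5 by a Student test, 5 as joined loci, 4 with the covariate, 2 to 30 with a tumor left out and 0 without both tumors listing Slc10a1 at 0. At an unadjusted p under 0.05 the counts of 760, 2385 and 445 became 1144 with scaling by named entries and 1322 with the covariate in the first comparison, 693 with the covariate in the second, and 812 without the filter, 269 at the filter of 5 and 1723 without those 2 tumors in the third. Leaving out 1 tumor gave 310 to 1426, 1005 to 3871 and 217 to 1860.

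Equal replicate numbers did not pair the tumors: correlations of their deviations from the group means were −0.394 to 0.475. With the replicate block, 6, 3 and 0 members had an unadjusted p under 0.05, 1, 0 and 0 features passed an adjusted p of 0.05, and 948 and 237 features had an unadjusted p under 0.05 in the 2 comparisons with PBS.

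Scaling by named entries moved the median of all features from −0.066 to −0.37 between responsive and nonresponsive tumors, where the members' median was 0.87. Of features with an unadjusted p under 0.05, the share higher in the first group went from 73.8% to 15.8%, from 49.2% to 30.9% and from 47.0% to 73.7% in the 3 comparisons. The number of fragments behind each value is unknown, and 3 tumors a group limit every p-value.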
